A study of Homo sapiens with 4 samples.

Results

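The ubiquitin-specific proteases (USPs) were followed in HGC27 cells, a human gastric cancer cell line, after knockdown of AARS1, the cytosolic alanyl-tRNA synthetase. Members were the rows whose gene symbol was USP followed by a number, with or without a final X, which gave 45 of the 14431 genes listed. The control group held 2 libraries of cells whose genotype is labelled WT, and the siAARS1 group held 2 libraries of cells labelled AARS1 knockdown, made with small interfering RNA. All cells of both groups were kept in glucose-free DMEM with serum and antibiotics and were given 25 mM lactate. The labels give 24 h of lactate and the text of the study another time, so the duration is uncertain. Every library had lactate, so the comparison asked how USP transcripts differed with less AARS1 under lactate, and not what lactate did. Nothing in the labels ties the libraries to separate cultures, so the p-values measure only the spread between these libraries, which may be technical.

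Ubiquitin is a small protein that is joined to other proteins, often as chains, and marks them for the proteasome, for sorting at endosomes, for signalling or for repair. Deubiquitinases take it off again, and the USPs are the largest family of them in human cells. Most USPs are cysteine proteases that share a catalytic domain and differ in the rest of the protein, which sets where they act and with which partners. The study itself is about lactate, AARS1 and YAP-TEAD transcription, and USPs are studied in gastric and other cancers as regulators of the turnover of signalling proteins.

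The family was split at the level of its transcripts. Of the 45 USPs, all were above the filter on low values, 27 were higher in siAARS1, 10 were lower and 8 did not pass the test (limma on log2(CPM + 1), Benjamini-Hochberg adjusted p-value under 0.05 over all 14199 genes tested). USP53, counted among the rises here and below, passed that filter only through its siAARS1 mean (4.38 CPM, against 0.69 CPM in control). Over all genes tested, 70.7% were called, 32.6% higher and 38.0% lower. The share of USPs called was 82.2%, and 22.2% of the 45 USPs were lower. In 13 USPs the rise was at least 2-fold on the log2(CPM + 1) scale, or 28.9% of them, against 10.6% of all genes. No USP was lower by as much as 2-fold, against 1.63% of all genes, and with edgeR on library size alone, with median scaling or with a pseudocount of 0.1 CPM 1 USP was, in each case USP43. The libraries of the groups did not overlap in 40 USPs, while 85.1% of all genes showed no overlap. The median log2 fold change was 0.33 over the USPs, with a range of -0.85 to 2.86, and -0.05 over all genes. Scaling each library to its median gene moved the median of all genes to -0.26 and that of the USPs to 0.11, and the split became 22 higher and 16 lower. Under that scaling 29.7% of all calls were higher, where the CPM as deposited gave 46.2%. Summed over the 45 USPs, the controls reached 2000.0 and 2036 CPM and the knockdown libraries 2767 and 2802 CPM.

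**Figure D1:**
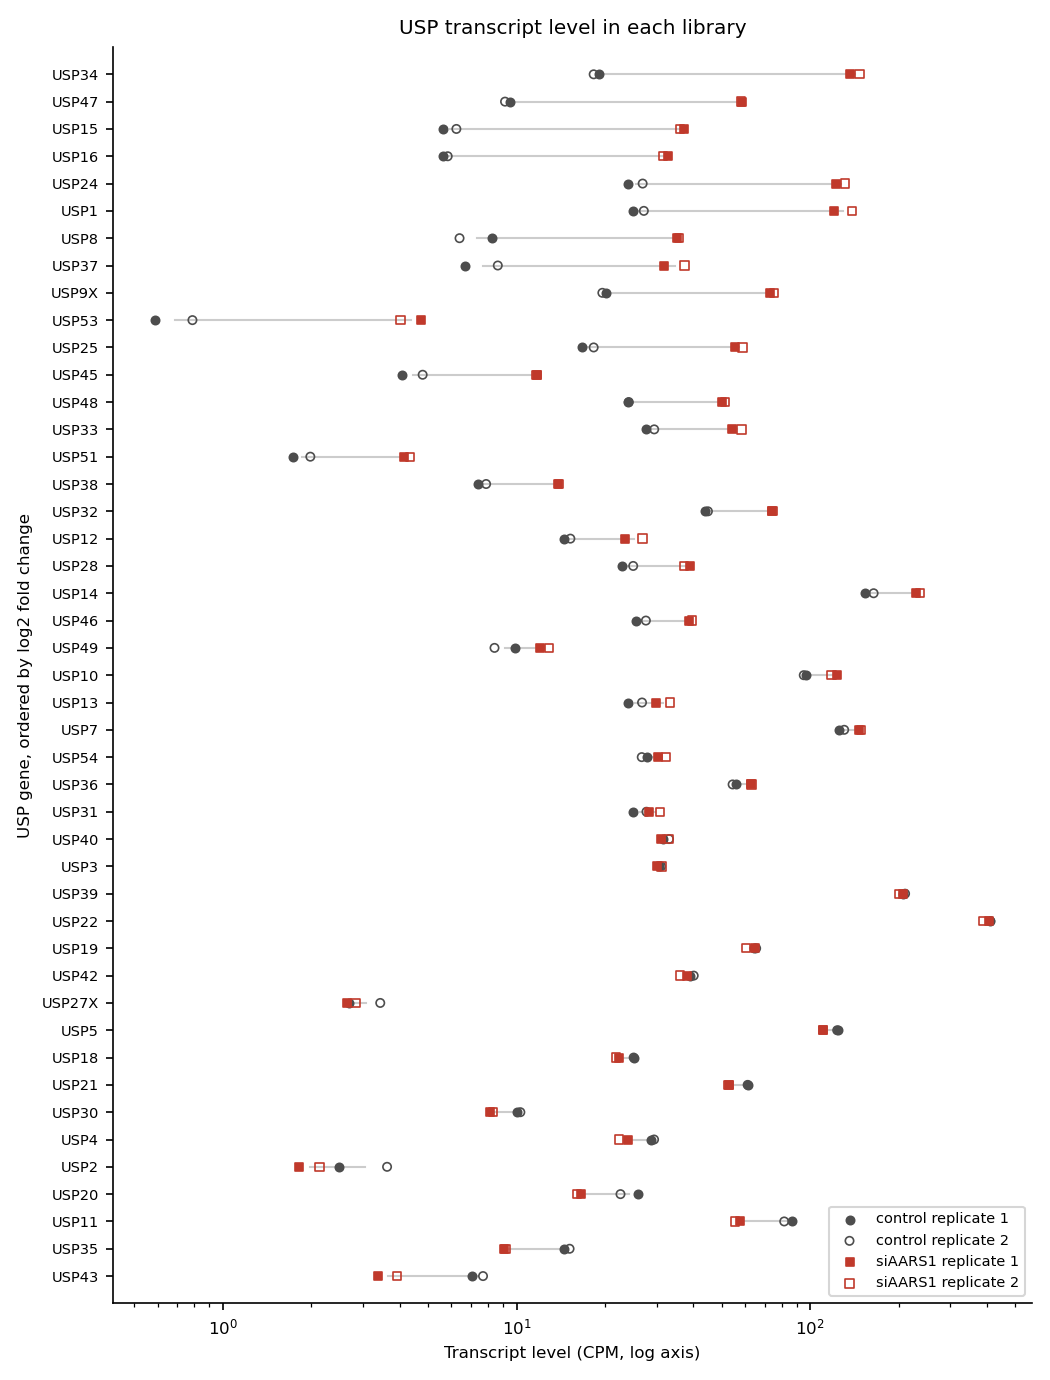
Transcript level of the 45 USP genes in each of the 4 libraries, in CPM on a log axis, with genes ordered by log2 fold change and a grey line joining the group means. USP34 at the top went from 18.7 to 142 CPM, USP22 and USP39 had the highest CPM and hardly moved, and USP43 at the bottom went from 7.38 to 3.64 CPM.

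The libraries held 30653210 to 33522573 reads in the listed genes, so that 1 read was worth 0.0293 to 0.0324 CPM and the lowest control value of any USP, 0.587 CPM for USP53, still lay above the 0.0880 CPM of 3 reads in that library. Such limits cover counting error only. The targeted gene, listed as AARS, stood at 428 and 417 CPM in the controls against 292 and 298 CPM after knockdown (log2 fold change -0.52 ± 0.036 SE, limma adjusted p = 2.52e-11). Its siAARS1 libraries were below both controls, and most of the transcript was still present. With transcript GC content and length taken out of each library its value was -0.27. Of the epithelial markers, KRT8 fell from 25.0 to 5.85 CPM and CDH1 from 2.22 to 0.867 CPM (limma adjusted p = 3.22e-13 and 0.000317), and KRT18, KRT19 and EPCAM were not among the genes listed. Of the mesenchymal markers, VIM fell slightly from 5099 to 4655 CPM, ZEB1 rose from 6.50 to 51.2 CPM, and CDH2 was not listed. The fibroblast collagens COL1A1 and COL1A2 were present and fell, from 2359 to 1593 and from 129 to 61.3 CPM. The immune marker CD68 stayed under 1.11 CPM in every library, and PTPRC, CD3E, PECAM1 and CDH5 were not listed. What these markers had to do with the USPs was not tested, and in bulk RNA fewer cells of one kind and less RNA per cell cannot be told apart.

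The USPs that rose and those that fell differed in base composition, and the stretch of coding sequence around the catalytic cysteine shows this on close relatives in the family. USP15, USP4 and USP11 descend from a common gene, as do USP33 and USP20, and in each set the member with few G or C bases at the third codon position was higher in siAARS1 and the others lower. USP34, USP1 and USP43 are shown beside them as the largest rise, the USP with the lowest GC at the third codon position, and the largest fall. Not all relatives moved in opposite directions. Both members rose in the pairs USP12 and USP46, USP47 and USP7, and USP25 and USP28, while USP13 rose and its relative USP5 fell. Each line gives 45 bases, or 15 codons, of the coding strand from 5′ to 3′ (GENCODE v29 transcripts, GRCh38), and the capitals mark the codon of the catalytic cysteine.
USP34: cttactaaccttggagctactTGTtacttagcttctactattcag
USP1: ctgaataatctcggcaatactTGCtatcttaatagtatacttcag
USP15: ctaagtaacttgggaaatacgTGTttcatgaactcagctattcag
USP4: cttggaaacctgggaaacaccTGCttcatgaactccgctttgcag
USP11: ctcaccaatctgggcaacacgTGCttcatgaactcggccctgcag
USP33: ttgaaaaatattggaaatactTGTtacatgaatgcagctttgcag
USP20: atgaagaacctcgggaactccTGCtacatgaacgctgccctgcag
USP43: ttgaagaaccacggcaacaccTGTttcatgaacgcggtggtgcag
These are coding exons. The USP34 stretch lies in exon 43 of 80 on the minus strand (chr2:61265445-61265489), and that of USP1 in exon 3 of 9 on the plus strand (chr1:62441564-62441608). That of USP15 is in exon 7 of 21 on the plus strand (chr12:62355431-62355475), that of USP4 in exon 8 of 22 on the minus strand (chr3:49310620-49310664) and that of USP11 in exon 7 of 21 on the plus strand (chrX:47240832-47240876). That of USP33 is in exon 7 of 24 on the minus strand (chr1:77734361-77734405), that of USP20 in exon 8 of 25 on the plus strand (chr9:129861554-129861598) and that of USP43 in exon 1 of 15 on the plus strand (chr17:9645939-9645983). Of the 15 codons shown, 3 end in G or C in USP34, 5 in USP1 and in USP33, 7 in USP15, 11 in USP4, and 14 each in USP11, USP20 and USP43. A match to the residue pattern of this stretch was found in 41 of the 44 USPs with a GENCODE v29 transcript, and not in USP53, USP54 and USP39. All 10 USPs with at most 5 such codons were higher in siAARS1, and of the 16 with at least 10, 4 were higher, 9 lower and 3 not called. These limits were not fixed beforehand and leave out the USPs in between. Across all 41 the Spearman correlation of this count with the log2 fold change was -0.76. The stretch was not taken from other genes, so no share over all genes stands beside these counts.

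Over whole coding sequences the same order held. GC at the third codon position ranged from 27.9% of codons in USP1 to 78.6% in USP20, with a median of 48.0% over the 44 USPs and 59.5% over all genes tested that had a coding sequence. Of the 20 USPs under 45%, 19 were higher, none was lower and USP40 was not called, with a median log2 fold change of 1.66. Of the 11 between 45% and 60%, 6 were higher, 3 lower and 2 not called (median 0.19). Of the 13 at 60% or more, 2 were higher, 7 lower and 4 not called (median -0.16). The limits of these ranges were set after the values were seen. All genes followed the same order, with 80.1% higher and 4.80% lower below 45% (3250 genes, median 0.74), 37.7% and 28.9% between the limits (2973 genes, median 0.03), and 6.89% and 65.2% at 60% or more (6036 genes, median -0.26). The Spearman correlation of the fold change with GC at the third codon position was -0.86 across the 44 USPs and -0.69 across 12259 genes. With GC content of the whole transcript it was -0.84 and -0.65, with transcript length 0.50 and 0.30, and with GC content of the 3′ UTR -0.59 and -0.59. With the GC content of the promoter it was -0.01 across 36 USPs and -0.15 across 9653 genes, and with the mean level -0.03 and -0.01. These are descriptions across genes, which share the same 4 libraries and whose properties go together.

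**Figure D2:**
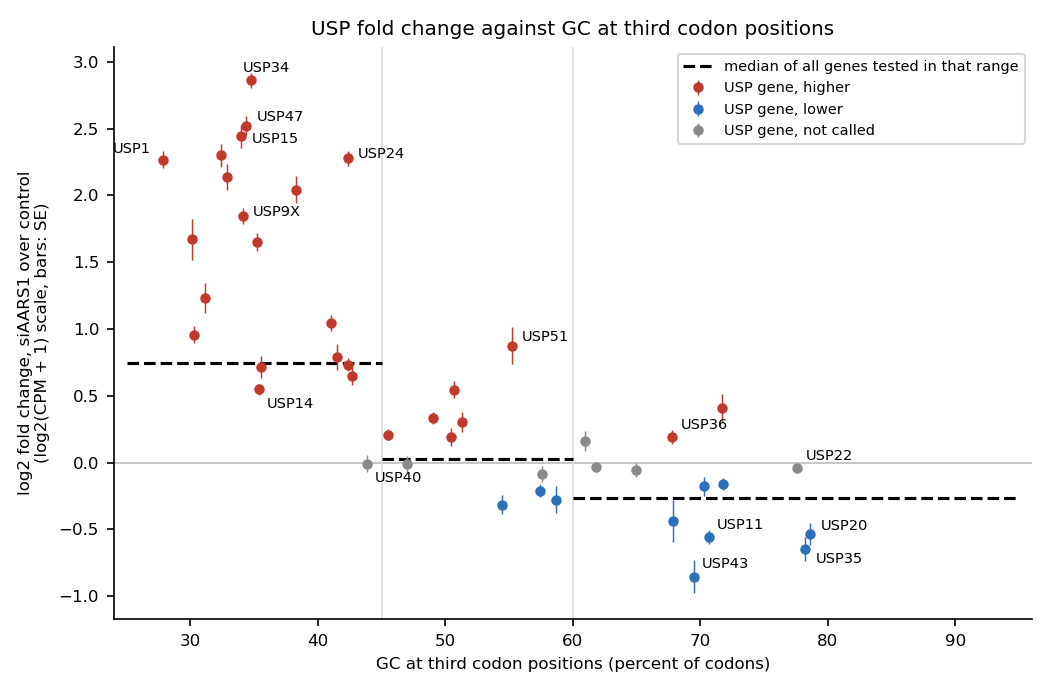
Log2 fold change of each USP (siAARS1 over control, log2(CPM + 1) scale, bars are the SE) against the percentage of its codons that end in G or C. Dashed lines are the median of all genes tested in the ranges below 45%, from 45% to 60%, and above. USPs called higher (red) lie mostly at the left and those called lower (blue) at the right, with USP40 not called among the AT-rich genes and USP36 and USP49 higher among the GC-rich ones.

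The dependence on sequence was measured by taking the smooth trend with it out of each library, which also takes out any true change that follows it. With transcript GC content and length taken out, 23 of the 44 USPs were higher and 13 lower, and 6 rises were at least 2-fold, where 32.8% of all genes were higher and 33.2% lower. These were in USP47, USP34, USP1, USP16, USP24 and USP25, with USP47 the largest at 1.84. With the coding sequence and 3′ UTR taken out, 16 were higher and 15 lower, where 34.1% of all genes were higher and 32.0% lower, and no USP reached 2-fold. The median over the USPs was 0.10 after the first correction and -0.01 after the second. Of the 8 USPs not called without correction, USP19, USP22 and USP39 were called higher and USP3 lower under both. In all, 11 USPs were called higher without correction and under both (USP1, USP8, USP10, USP15, USP16, USP24, USP34, USP36, USP37, USP47 and USP51), and 5 were called lower under all of these (USP4, USP11, USP20, USP35 and USP43). The larger values of the next paragraphs shrank as follows under the first and the second correction. USP34 had 1.53 and 0.19, USP47 1.84 and 0.81, USP15 0.67 and 0.22, and USP16 1.41 and 0.78. USP24 had 1.38 and 0.61, USP1 1.51 and 0.60, USP8 0.63 and 0.24, and USP37 0.77 and 0.51. USP9X, another large rise without correction, had 0.51 and then -0.80.

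**Figure D3:**
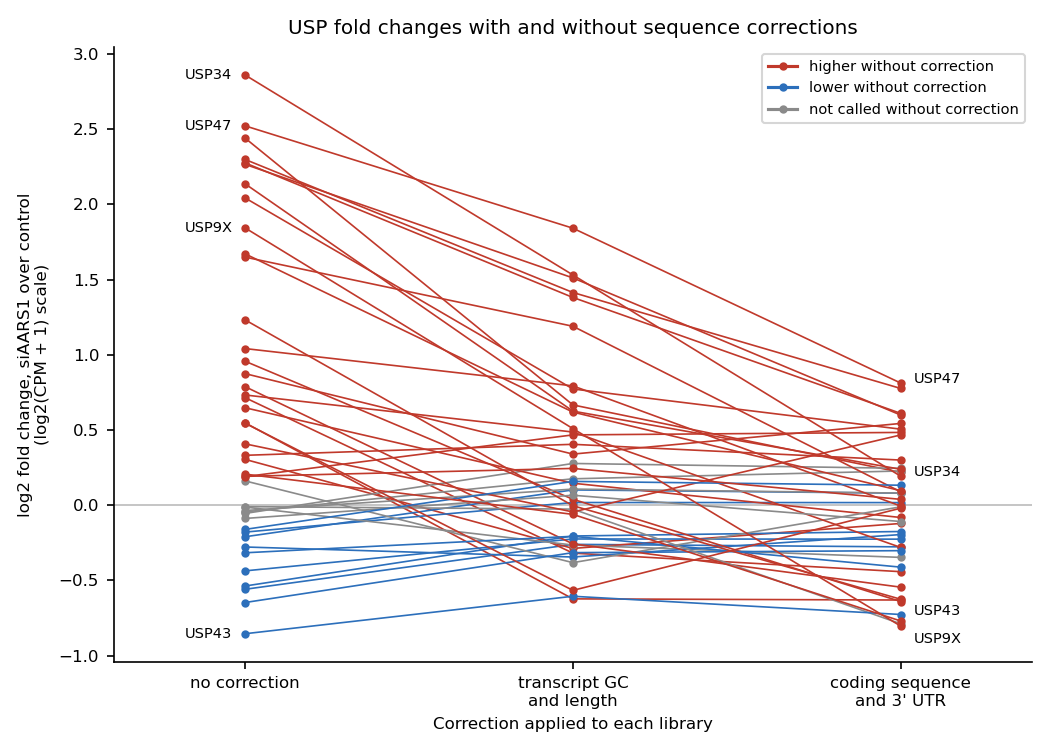
Log2 fold change (siAARS1 over control, log2(CPM + 1) scale) of the 44 USPs with a GENCODE v29 transcript, without correction and after the trend with transcript GC content and length, or with coding sequence and 3′ UTR, was taken out of each library. Each line is 1 gene, coloured by its call without correction. The range narrows from left to right, USP47 stays highest at 0.81, and USP9X ends lowest at -0.80.

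Among the 8 USPs grouped by signalling roles, 5 were higher and 3 lower, and 4 rises were at least 2-fold. For this and the later groups, the shares over all genes tested were 32.6% higher, 38.0% lower and 10.6% at least 2-fold higher. USP34 (ENSG00000115464, chr2:61187463-61470769, minus strand), a very large enzyme that acts on axin in the Wnt pathway, had 19.1 and 18.3 CPM in the controls against 137 and 147 CPM with siAARS1. Both siAARS1 libraries were far above both controls, and the ratio of the means was 7.61. On the log2(CPM + 1) scale the gene rose by 2.86 ± 0.055 (SE, limma adjusted p = 1.71e-20), and it ranked 20 among the 14199 genes tested by the size of the rise. AHSA2 lies on the opposite strand over 18.0% of the exon bases of USP34 and went from 75.3 and 79.4 to 103 and 99.8 CPM. The use of strand in counting is not given in the sources used here, so reads in the shared part cannot be told apart. USP24 (ENSG00000162402), also a very large enzyme, had 24.0 and 26.9 CPM in the controls against 123 and 131 CPM with siAARS1, with no overlap (log2 fold change 2.28 ± 0.058, limma adjusted p = 9.93e-19). USP9X, which protects MCL1 and other short-lived proteins, had 20.1 and 19.6 against 72.9 and 75.1 CPM (1.84 ± 0.058, limma adjusted p = 3.19e-17). These 3 genes have the longest coding sequences of the family.

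USP15, USP4 and USP11 are close relatives that act on TGF-β signalling and on repair proteins, and their transcripts moved apart. USP15 (ENSG00000135655) had 5.60 and 6.24 CPM in the controls against 37.1 and 36.0 CPM with siAARS1 (log2 fold change 2.44 ± 0.086, limma adjusted p = 2.25e-16). USP4 had 28.7 and 29.4 CPM in the controls against 24.0 and 22.3 CPM with siAARS1 (-0.32 ± 0.069, limma adjusted p = 0.000383). USP11, a partner of BRCA2 placed with the repair group, had 86.5 and 81.6 against 57.8 and 55.6 CPM (-0.56 ± 0.050, limma adjusted p = 2.00e-09). USP15 was thus above its controls in both siAARS1 libraries, and its relatives were below theirs. The ratio of USP15 to USP11 within a library, which no scaling of libraries can change, was 0.0648 and 0.0765 in control and 0.642 and 0.649 in siAARS1. That of USP15 to USP4 was 0.195 and 0.212 and became 1.54 and 1.62, while that of USP4 to USP11 went from 0.332 and 0.361 to 0.415 and 0.401. The genes differ in length, so only the change in these ratios is read. USP15 thus took a larger part of the reads of the set, and both corrections kept the direction of all 3 genes. The ratios themselves were not corrected for sequence. Under the corrections USP15 was at 0.67 and 0.22, USP11 at -0.26 and -0.28, and USP4 at -0.21 and -0.41. The distance of USP15 from its relatives was thus much smaller after either correction.

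**Figure D4:**
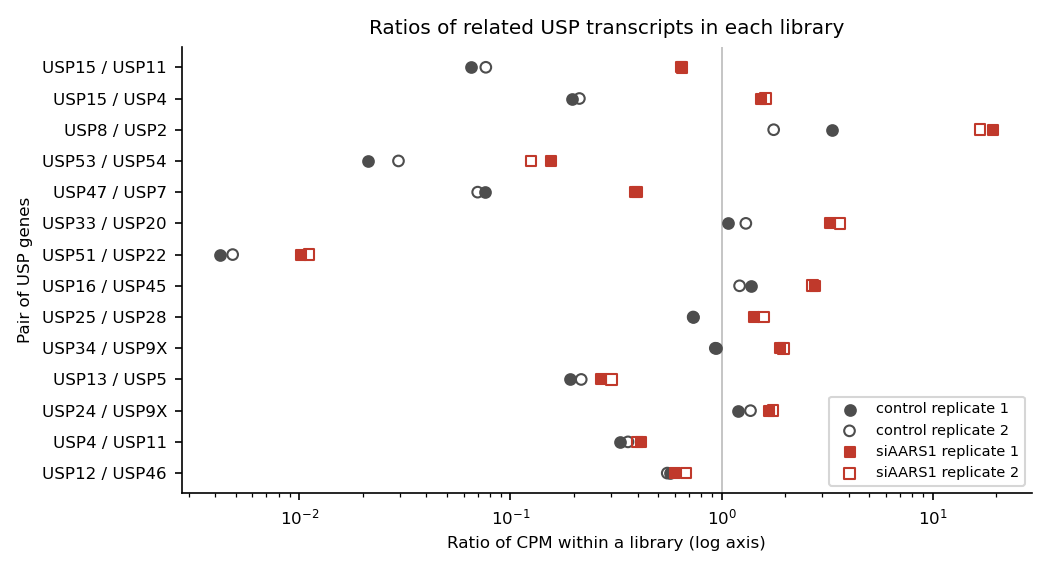
Ratio of the CPM of pairs of USP genes within each library, on a log axis, with the pair of the largest change at the top. Each pair was written with the USP of the higher log2 fold change as the numerator. That the siAARS1 libraries (red) lie to the right of the control libraries (dark) follows from this choice, and only the size of the shift is read. The ratio went from 0.0707 to 0.645 on average for USP15 over USP11 and from 0.561 to 0.641 for USP12 over USP46. These ratios were not corrected for sequence.

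The remaining signalling members changed less. USP10, which binds the stress granule protein G3BP1 and acts on p53, had 96.5 and 95.1 CPM in the controls against 123 and 118 CPM with siAARS1, with the groups apart (log2 fold change 0.33 ± 0.043, limma adjusted p = 6.80e-07). Both corrections kept its rise, at 0.41 and 0.30. USP18, which removes the ubiquitin-like protein ISG15 and restrains interferon signalling, had 25.1 and 25.1 CPM in the controls against 22.3 and 21.8 CPM with siAARS1. Its siAARS1 libraries were lower by a small step (-0.18 ± 0.070, limma adjusted p = 0.0282), and the call was lost when any 1 of the 4 libraries was left out (limma adjusted p of 0.0512 to 0.105), and it was 0.0649 in edgeR with TMM and 0.277 in DESeq2. USP41, a near-identical copy of USP18, was not among the genes listed, so how reads of both were shared out is uncertain. USP2, linked to cyclin D1 and to the circadian clock, was low, with 2.49 and 3.63 CPM in the controls against 1.81 and 2.14 CPM with siAARS1 (-0.44 ± 0.16, limma adjusted p = 0.0179). Its call was lost without control replicate 2 (limma adjusted p = 0.276, log2 fold change -0.23) and without siAARS1 replicate 1 (limma adjusted p = 0.137), and DESeq2 did not call it (adjusted p = 0.129). Under the corrections USP2 was at -0.22 and -0.23 and no longer called, and USP18 was at 0.02 in both.

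Of the 8 USPs with roles in DNA repair and the cell cycle, 7 were higher and only USP11 was lower, and 5 of the rises were at least 2-fold. Their median GC at the third codon position was 39.6%, and 80.1% of all genes below 45% were higher. USP7 (45.5%) and USP11 (70.6%) lie above that limit, so this share does not cover the whole group. USP1 (ENSG00000162607, chr1:62436297-62451804, plus strand), which with WDR48 takes ubiquitin off FANCD2 and PCNA in crosslink repair and lesion bypass, had 25.0 and 27.1 CPM in the controls against 120 and 139 CPM with siAARS1. Both siAARS1 libraries were well above the controls (log2 fold change 2.27 ± 0.062, limma adjusted p = 3.13e-18). USP47, linked to base excision repair through DNA polymerase beta, had 9.50 and 9.14 against 58.6 and 58.0 CPM (2.52 ± 0.070, limma adjusted p = 4.24e-18). USP37, a cell cycle enzyme that acts on cyclin A, had 6.69 and 8.64 against 31.9 and 37.3 CPM (2.04 ± 0.10, limma adjusted p = 8.58e-14). The villin gene VIL1 covers 32.8% of the exon bases of USP37 on the opposite strand, and its own level was at most 1.20 CPM in any library.

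USP7, the enzyme that acts on both MDM2 and p53, is a relative of USP47 and was far less changed. It had 125 and 131 CPM in the controls against 147 and 149 CPM with siAARS1, with no overlap (0.21 ± 0.041, limma adjusted p = 0.000139). Under median scaling its log2 fold change was -0.02, and it was -0.06 and -0.77 after the first and the second correction. The ratio of USP47 to USP7 was 0.0759 and 0.0700 in control and 0.400 and 0.390 in siAARS1. Of the others, USP45, which acts on the repair nuclease subunit ERCC1, had a log2 fold change of 1.23, USP48, an enzyme for ubiquitin on histone H2A, 1.04, and USP28, which binds 53BP1 and stabilises MYC, 0.65 (each called). With GC content and length taken out these were 0.00, 0.79 and 0.15, and after the second correction -0.63, -0.01 and -0.08.

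The 9 USPs with histone and chromatin roles included 5 that rose, 1 that fell and 3 that did not pass. USP16, which removes ubiquitin from histone H2A before mitosis, had 5.60 and 5.83 CPM in the controls against 32.7 and 31.5 CPM with siAARS1 (2.30 ± 0.087, limma adjusted p = 7.60e-16), and it was the only rise of at least 2-fold on the log2(CPM + 1) scale in this group. USP21, another H2A enzyme, had 61.2 and 61.2 against 52.9 and 52.7 CPM (-0.21 ± 0.050, limma adjusted p = 0.000901), and its direction turned to 0.10 and 0.08 under the corrections. USP3, also an H2A enzyme, had 30.6 and 31.1 against 29.98 and 31.2 CPM, and the groups overlapped (-0.01, limma adjusted p = 0.875).

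USP22 is the deubiquitinase of the SAGA coactivator complex, where it works in a module with ATXN7, ATXN7L3 and ENY2. USP51 and USP27X also bind ATXN7L3 and ENY2, but outside SAGA. USP22 had 409 and 410 CPM in the controls against 406 and 389 CPM with siAARS1, so that siAARS1 lay just below both controls without passing the test (-0.04 ± 0.036, limma adjusted p = 0.274). USP51 had 1.73 and 1.99 CPM in the controls against 4.15 and 4.33 CPM with siAARS1 (0.88 ± 0.14, limma adjusted p = 1.00e-05). At this low level the scale understates the change, which was 1.15 with a pseudocount of 0.1 CPM. USP27X, with 2.70 and 3.44 against 2.66 and 2.83 CPM, was not called (-0.11, limma adjusted p = 0.485). USP51 was therefore the enzyme of this set that rose, and per transcript length its level in siAARS1 was 0.962 CPM per kb, where USP22 had 76.1 CPM per kb. Of the module partners, ATXN7 rose (0.74) and ENY2 rose (0.32), and ATXN7L3 fell by 0.16 on the log2 scale. USP12 and USP46, related enzymes that both need WDR48, rose by 0.72 and 0.55. They were at -0.32 and -0.57 after the first correction and at -0.44 and -0.02 after the second, where USP46 was not called (limma adjusted p = 0.777). USP49, an H2B enzyme, rose by 0.41, which was no longer called under median scaling (limma adjusted p = 0.0737) and was -0.04 and not called with GC content and length taken out, but 0.47 and called after the second correction (limma adjusted p = 0.000121).

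Of the 6 USPs of endosomes, membranes and organelles, 3 were higher and 2 lower. USP8, which acts on receptors such as EGFR at the endosome and binds STAM proteins, had 8.27 and 6.40 CPM in the controls against 35.1 and 35.8 CPM with siAARS1, with the groups far apart (2.14 ± 0.096, limma adjusted p = 1.35e-14). USP33 and USP20 are relatives that both bind the VHL protein, and they moved in opposite directions. USP33 had 27.6 and 29.4 against 54.4 and 58.4 CPM (0.96 ± 0.060, limma adjusted p = 5.66e-12), and USP20 had 25.9 and 22.6 against 16.6 and 16.1 CPM (-0.54 ± 0.081, limma adjusted p = 4.66e-06). Their ratio within a library was 1.07 and 1.303 in control and 3.27 and 3.64 in siAARS1. With GC content and length taken out USP33 was at 0.04 and no longer called, and after the second correction it was at -0.64, while USP20 stayed lower at -0.20 and -0.17. USP32, a membrane enzyme, rose by 0.73, with 0.49 and -0.28 under the corrections. USP30, which opposes the clearance of mitochondria, had 10.0 and 10.3 against 8.10 and 8.33 CPM (-0.28 ± 0.10, limma adjusted p = 0.0186). Its call was lost without control replicate 2 (limma adjusted p = 0.0839) or siAARS1 replicate 1 (limma adjusted p = 0.0761), and in DESeq2 (adjusted p = 0.180), while it was called with GC content and length taken out (-0.34, limma adjusted p = 0.00379) and not after the second correction (-0.19, limma adjusted p = 0.0706). USP19, which is anchored in the endoplasmic reticulum, had 64.5 and 65.5 against 64.7 and 60.5 CPM and was not called (-0.05, limma adjusted p = 0.345).

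The 4 USPs of ubiquitin recycling and the proteasome held 3 rises and 1 fall. USP14, which sits on the proteasome and trims chains from its substrates, had 153 and 164 CPM in the controls against 229 and 236 CPM with siAARS1. The groups were clearly apart (0.55 ± 0.041, limma adjusted p = 1.21e-10), yet both corrections turned the sign, to -0.62 and -0.63. USP5, which takes apart free ubiquitin chains, had 124 CPM in both control libraries and 111 CPM in both siAARS1 libraries (-0.16 ± 0.041, limma adjusted p = 0.00168). It was at 0.16 and 0.13 under the corrections, and DESeq2 did not call it (adjusted p = 0.0659). USP13, its relative, rose by 0.31, and the ratio of USP13 to USP5 went from 0.193 and 0.217 to 0.269 and 0.301. USP25 rose by 1.65, more than its relative USP28, and the ratio of USP25 to USP28 went from 0.731 and 0.734 to 1.42 and 1.58. USP13 was no longer called under median scaling (limma adjusted p = 0.275) and was at -0.29 and -0.12 under the corrections, while USP25 was at 1.19 and 0.09.

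The 3 USPs with RNA and nucleolar roles hardly moved. USP39, a splicing factor of the tri-snRNP that lacks protease activity, had 207 and 210 CPM in the controls against 207 and 200.2 CPM with siAARS1, and the groups overlapped (-0.04 ± 0.038, limma adjusted p = 0.419). USP42 had 38.9 and 40.1 against 38.2 and 36.1 CPM and was not called either (-0.09, limma adjusted p = 0.191). USP36, a nucleolar enzyme, had 55.9 and 54.4 against 63.0 and 63.1 CPM (0.19 ± 0.050, limma adjusted p = 0.00200). It rose although 67.8% of its codons end in G or C, with 0.47 and 0.48 under the corrections and -0.03 under median scaling.

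Among the 7 USPs without a settled role, 3 were higher, 2 lower and 2 not called. USP43 had 7.07 and 7.69 CPM in the controls against 3.37 and 3.91 CPM with siAARS1 (-0.85 ± 0.12, limma adjusted p = 2.67e-06). USP35 had 14.5 and 15.2 against 9.03 and 9.17 CPM (-0.65 ± 0.093, limma adjusted p = 2.57e-06). Both were below their controls in both libraries and stayed lower under the corrections, USP43 at -0.61 and -0.73 and USP35 at -0.32 and -0.30. USP53 had only 0.587 and 0.788 CPM in the controls against 4.73 and 4.03 CPM with siAARS1 (1.67 ± 0.15). Its control mean was under the filter of 1 CPM, which it passed only through siAARS1, so its p-value is not given. At this level the log2(CPM + 1) scale understates the change, which was 2.52 with a pseudocount of 0.1 CPM. Under the corrections USP53 was at 0.62 and, no longer called, at 0.10. USP38 rose by 0.79, with -0.26 and -0.54 under the corrections. USP54 rose by 0.19, a call lost without control replicate 2 (limma adjusted p = 0.0984) or siAARS1 replicate 2 (limma adjusted p = 0.106), and it was at -0.03 under median scaling and at 0.24 and 0.04 under the corrections. USP31 had 24.9 and 27.7 against 28.2 and 30.9 CPM and just missed the threshold (0.16 ± 0.072, limma adjusted p = 0.0509), and it passed without control replicate 2 (limma adjusted p = 0.0177) or siAARS1 replicate 1 (limma adjusted p = 0.0376). It was called lower after the first correction (-0.38) and was at -0.01 after the second. RP11-20G6.3 lies on the same strand over 23% of the exon bases of USP31, and RP11-137L10.6 on the opposite strand over 16.1% of those of USP54. Reads in these shared parts cannot be told apart here. USP40 had 31.6 and 33.1 against 31.1 and 33.1 CPM (-0.01, limma adjusted p = 0.904), and was at -0.03 after the first correction and -0.79, called lower, after the second.

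Divided by transcript length, the most abundant USP transcripts in control were USP39 with 95.8 CPM per kb and USP22 with 78.5 CPM per kb, followed by USP5 (40.2), USP14 (32.3) and USP10 (31.8 CPM per kb). In siAARS1 USP39 (93.5) and USP22 (76.1 CPM per kb) were still at the top, followed by USP14 (47.3), USP10 (40.2), USP5 (35.9) and USP1 (32.4 CPM per kb). USP1 had been at 6.53 CPM per kb in control. USP34 went from 1.65 to 12.5 and USP47 from 2.06 to 12.9 CPM per kb, and USP15 from 0.396 to 2.45 and USP8 from 0.385 to 1.86 CPM per kb, both with very long annotated 3′ UTRs. These lengths are those of 1 annotated transcript per gene and may not be those present in the cells.

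The rest of the ubiquitin system gave the setting for these values. Outside the USP symbols, 39 further genes of deubiquitinase families were looked up, not all of them active deubiquitinases, and 35 were listed. Of these 35, 19 were higher, 11 lower and 5 not called. Their median log2 fold change was 0.33, which is also the median over the USPs. A GENCODE v29 transcript was found for 34 of them. After the first correction 11 were higher and 11 lower, where 32.8% of all genes were higher and 33.2% lower. After the second 13 were higher and 8 lower, where 34.1% of all genes were higher and 32.0% lower. The largest changes were in MYSM1, an H2A deubiquitinase (2.26), BRCC3, a subunit of the BRCA1-A complex (2.22), and OTUD6B (1.97). With GC content and length taken out these were 0.79, 1.65 and 0.91, and after the second correction 0.37, 2.14 and 1.26. Of 12 proteins that USPs work with, 10 were higher, ATXN7L3 was lower and WDR20 was not called (median 0.55). That split did not last under the corrections, with 4 higher and 4 lower after the first and 4 higher and 3 lower after the second. For both lists the shares over all genes tested were those given for the USPs, 32.6% higher and 38.0% lower without correction. Under each correction they were the shares given above in this paragraph. The largest of these rises were in the midbody protein CEP55 (1.38), STAM2, the endosomal partner of USP8 (1.13), and ATXN7 (0.74). Under the corrections CEP55 was at 0.87 and 0.51, STAM2 at -0.11 and -0.22, and ATXN7 at 0.96 and 0.95. WDR48, the activator of USP1, USP12 and USP46, went from 12.5 and 13.1 to 20.1 and 20.03 CPM. The E1 enzymes start every ubiquitin transfer, and the transcripts of UBA6 and UBA1 moved apart. UBA6 had 8.83 and 10.5 CPM in the controls against 60.7 and 69.3 CPM with siAARS1 (2.63 ± 0.082, limma adjusted p = 2.50e-17). Its relative UBA1 was lower, at -0.29 on the log2 scale (limma adjusted p = 3.38e-07), and so was the ubiquitin gene UBB, at -0.46 (limma adjusted p = 7.25e-11). Under the corrections UBA6 was at 1.00 and 0.28 and UBB at -0.26 and -0.19.

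The promoters were searched for the letters GGAATG, which TEAD factors bind, on both strands of the 300 bases around each start (RefSeq, GRCh38.p14). The table held 48 entries for 36 of the USPs. The letters were present in 7 of these (14.6%), in USP15, USP19, USP25, USP34, USP36 and in both entries of USP54, against 14.0% of the 35116 entries of all genes. These 6 genes include large rises (USP15, USP25 and USP34), small ones (USP36 and USP54) and USP19, which was not called. A match is a description of letters and not a binding site.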

How the data were processed

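RNA-seq of 2 control and 2 siAARS1 libraries of HGC27 cells was read from 1 table of 14431 genes. The authors deposited CPM values, that is, read counts scaled to the size of each library, which do not correct for length or GC content. The submitters' processing notes name RSEM 1.3.3 and hg38. The aligner, the annotation and the use of strand are not given in the sources used here. Every listed gene had over 1 CPM in at least 1 library. In each library 100% of the values were whole multiples of 1 read (tolerance 0.1 read), which gave the read counts and depths.

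The members and lists were chosen with earlier results of these data known. The test covered the 14199 genes that averaged 1 CPM or more in a group and used limma 3.58.1 in R 4.3.3 (eBayes with a trend) on log2(CPM + 1), contrasting siAARS1 with control without covariates, and Benjamini-Hochberg adjustment over all genes at 0.05. This scale understates changes of genes with low CPM. Groups and replicate numbers came from the sample titles. SE is of the log2 fold change. The recovered reads were also tested with edgeR 4.0.16 (quasi-likelihood), which called 9806 genes with TMM, and DESeq2 1.42.0, which called 8355. Libraries were compared before use. The chi-square per gene was 3.63 between the control and 3.62 between the siAARS1 libraries, which is spread beyond counting error. Each library was used as a separate sample, but this spread does not show that they came from separate cultures.

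Coding sequence, length and GC content came from 1 GENCODE v29 transcript per gene, found for 97.2% of the listed genes and for 44 USPs (USP27X had none). The corrections fitted each library's deviation from the gene mean on these properties (mgcv 1.9.3). Other alternatives were no filter, a pseudocount of 0.1 CPM, median and quantile scaling, the replicate number as a block, a threshold of 0.01 and leaving out each library. The scripts were tried on simulated data with known changes. Far fewer genes changed there than in these data, and the GC trend was removed with a simpler fit. The trial therefore does not show how the fits perform on these libraries.

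Named with the value in every library were the 8 largest called rises and falls that reached 5 CPM with no overlap of groups, and USP1, USP7, USP9X, USP10, USP14, USP18, USP22 and USP39, and from each other list the 3 largest called changes. Values of further genes were added after they were seen. A second symbol column of the table, which gives MIR6125 for the row of USP15, was not used. The protein sequences of the members were not used here, and some genes of the ubiquitin list are not reported here.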

Additional observations from a re-analysis of the deposited data

How the results depend on the processing

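With 2 libraries a group, the calls of USP2, USP18, USP30 and USP54 were lost when 1 library was left out, and whether the sequence trend is biological or technical was not tested. The number of USPs called stayed within 31 to 38 under the alternatives run, and no call changed direction under a pseudocount, filter, threshold, edgeR, DESeq2, quantile scaling, the replicate block or a left-out library. Same-numbered libraries share only a number (correlation of their deviations 0.12 over 14199 genes), and with the replicate number as a block 38 USPs were called in place of 37, USP31 being added. Without 1 library in turn the number called was 34 to 36, and the median of the USPs minus that of all genes was 0.37 to 0.44.

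DESeq2 called 6 USPs lower and gave a median of 0.39. Median scaling gave 16 lower, 1 of them at least 2-fold, a median of 0.11, and -0.020 for USP7, -0.029 for USP54 and -0.035 for USP36. Quantile scaling gave a median of 0.20. A pseudocount of 0.1 CPM, and edgeR on library size alone, each gave 1 fall of at least 2-fold.

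With GC content and length taken out, also with the replicate block, 6 USPs changed at least 2-fold, all of them higher, the median was 0.10 and its distance from all genes 0.11. Among USPs and partners called with or without this correction, the sign turned in USP45 (-0.0032), USP38 (-0.26), USP12 (-0.32), USP14 (-0.62), USP46 (-0.57), USP49 (-0.045), USP13 (-0.29), USP7 (-0.061), USP31 (-0.38), USP39 (0.11), USP22 (0.18), USP19 (0.28), USP5 (0.16), USP18 (0.018), USP21 (0.10) and STAM2 (-0.11). Of the USPs in this list, USP45, USP49, USP7 and USP18 were not called with the correction. With the coding sequence and 3′ UTR taken out 16 USPs were higher, 0 changed at least 2-fold and 7 partners were called. The median was -0.0081, its distance from all genes -0.018, and the median of all genes 0.0095. By the same count the sign turned in USP9X (-0.80), USP45 (-0.63), USP48 (-0.0058), USP33 (-0.64), USP38 (-0.54), USP32 (-0.28), USP12 (-0.44), USP28 (-0.082), USP14 (-0.63), USP46 (-0.020), USP13 (-0.12), USP7 (-0.77), USP39 (0.081), USP22 (0.23), USP19 (0.25), USP5 (0.13), USP18 (0.018), USP21 (0.080) and STAM2 (-0.22). Of the USPs in this second list, USP48, USP28, USP46, USP13, USP18 and USP21 were not called with the correction. The cause of these sign changes was not tested.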
